A study of Homo sapiens with 6 samples.

Results

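The cytosolic ribosomal proteins were described in HEK293 cells, a human embryonic kidney cell line, after knockdown of the long noncoding RNA HSALNG0134318. Their genes were found by name, as RPL or RPS followed by a number and at most a letter and a further number, together with RPLP0, RPLP1, RPLP2 and RPSA, and without the Y-linked RPS4Y1 and RPS4Y2, the RPS6K kinase genes and pseudogenes. Of 26485 gene names, 84 matched and 82 held at least 10 counts in each of the 6 cultures. The remaining names were RPL10L, at 0 counts throughout, and RPL3L, at 0 to 7 counts. The rule itself uses no expression difference. The set held 47 genes of the large subunit, 32 of the small subunit and 3 of the ribosomal stalk, and 5 of the 79 subunit genes were paralogs of another member (RPL7L1, RPL22L1, RPL26L1, RPL39L and RPS27L).

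The study knocked down lncRNAs that lie in copy number variants linked to congenital kidney anomalies, and this experiment asked which genes change when HSALNG0134318 is reduced. Polyadenylated RNA was sequenced from 3 knockdown cultures (KD-1, KD-4 and KD-5, here knockdown 1, 2 and 3) and 3 control cultures (NC-10, NC-11 and NC-1, here control 1, 2 and 3). The knockdown was transient, with a Smart Silencer, which mixes siRNAs with antisense oligonucleotides. The controls were labelled negative control in one field and WT in another, and what they were transfected with is not given in the sources used here. All cultures were of 1 cell line, whose sample titles read HEK393 where the other labels read HEK293, and they carried no other treatment or allele in the labels. HEK293 cells were made with adenovirus DNA, so the line is a model of transformed embryonic kidney cells and not of the developing organ. The level of HSALNG0134318 itself was not analysed here, so in these data the labels have no check from the targeted RNA. The study ran qPCR after this knockdown and lists primers for HSALNG0134318, and its qPCR values were not used here.

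Cytosolic ribosomal proteins assemble with ribosomal RNA in the nucleolus into the small subunit, which reads the mRNA, and the large subunit, which joins the amino acids. Their stalk, built on RPLP0, recruits the translation factors that hydrolyse GTP. Most of their mRNAs begin with a terminal oligopyrimidine (TOP) tract, a C followed by an unbroken run of C and T in the DNA, through which mTOR and LARP1 set how many of them are translated, and surplus free ribosomal proteins such as RPL5 and RPL11 bind the ubiquitin ligase MDM2. In growing kidney lines such as HEK293 these genes are among the most abundant protein-coding transcripts.

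The start sites of the paralogs and of members whose values are described further on are printed here because the tract is the feature most of these genes share. Each line gives 30 bases of the RefSeq promoter table (GRCh38.p14), 5′ to 3′ on the gene's strand with the annotated start site at base 16, and the capitals mark the longest run of C and T that comes within 10 bases of the start site, or of equally long runs the one nearest to it.
RPL26 (chr17:8383179-8383208, minus strand): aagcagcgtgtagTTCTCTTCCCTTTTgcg
RPL26L1 (chr5:172958714-172958743, plus strand): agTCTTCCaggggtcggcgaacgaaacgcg
RPL22 (chr1:6199581-6199610, minus strand): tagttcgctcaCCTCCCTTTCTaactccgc
RPL22L1 (chr3:170870181-170870210, minus strand): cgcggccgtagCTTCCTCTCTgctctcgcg
RPL7L1 (chr6:42879601-42879630, plus strand): cggaagtgcggcgCCgtagctaggagcgga
RPS27 (chr1:153990747-153990776, plus strand): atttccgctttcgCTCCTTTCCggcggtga
RPS27L (chr15:63157463-63157492, minus strand): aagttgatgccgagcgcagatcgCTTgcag
RPL41 (chr12:56116618-56116647, plus strand): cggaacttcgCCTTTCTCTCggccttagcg
RPL36 (chr19:5690280-5690309, plus strand): ccgcgcggcgccagCCCTTCCgccacggcc
RPL13 (chr16:89560642-89560671, plus strand): ggccctgctatcaTCCCagagtgcattgcg

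A run of at least 8 bases of C and T, read on the gene's strand only, lay at or within 10 bases of the start in 52 of the 66 members that had an entry, or 78.8%, against 15.6% of all 35116 promoters of the table. The run in RPL26, a protein of the large subunit, was 14 bases long, and that in its paralog RPL26L1 was 6. RPL22 and RPL22L1 held runs of 11 and 10 bases, so this pair was alike. RPL7L1 had a run of 2 bases and RPS27L of 3, against 9 in RPS27. The 14 members without a run of 8 bases were RPL3, RPL6, RPL11, RPL12, RPL13, RPL15, RPL32, RPL36, RPS3A, RPS4X, RPS29 and the paralogs RPL7L1, RPL26L1 and RPS27L. A run is a description of these letters, and the start sites used by the cells were not measured.

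The libraries held 13900965 to 16869948 counts over all genes, and 14877 genes passed the filter on low counts. Normalized counts are counts scaled to the mean library by trimmed mean of M-values (TMM). Control 2 stood apart: it had the lowest quality weight in limma, 0.271 against 0.687 to 2.511 in the other libraries, and its values are set out below before the comparison. Fold changes are therefore given with all 6 cultures and, for most of the genes described, also without control 2. The HEK293 markers PAX2, EYA1, NEFM, NEFL, VIM, KRT8 and KRT18 were detected in every culture, from 97.7 for PAX2 to 13700 for VIM as normalized counts, HBB was at 0 and PTPRC and ALB reached at most 4 counts. LRP2 (528 to 1140) and CUBN (16.1 to 34.0), both known from the proximal tubule, were present in all cultures. The series describes its samples as biological replicates without saying how they were grown, so the p-values measure the spread between these cultures.

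Levels of the members differed widely. As normalized counts per kilobase of coding sequence, averaged over the 6 cultures, the median member stood at 11392, with quartiles of 6970 and 16461. RPL41, the shortest member, was highest at 33716, followed by RPS4X at 31917 and RPS15 at 31007. Counts were divided by coding length alone, without untranslated sequence. RPL41 has 78 coding nt in an annotated transcript of 676 nt, so its rank depends on this divisor. The 5 lowest were RPS10 at 88.2, RPL22L1 at 150.0, RPL39L at 315, RPL36A at 779 and RPL17 at 815. RPL26L1 stood at 873, RPS27L at 1827 and RPL7L1 at 3241, so all 5 paralogs lay below the lower quartile. Leaving the paralogs aside, the medians of 43 large subunit genes (11985) and 31 small subunit genes (10582) were close. Counts of such genes depend on how reads that also match pseudogenes or paralogs were assigned, which is not given in the sources used here. RPS10, RPL17 and RPL36A are overlapped by readthrough genes, which held 0 to 3, 0 to 15 and 0 to 1 counts, and the low levels of these 3 members are uncertain for both reasons.

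In control 2 nearly all ribosomal protein mRNAs were higher than in the other control cultures (74 of 82). The member genes stood a median of 0.54 on the log2 scale above the mean of controls 1 and 3, with a range of -0.75 for RPS10 to 1.65 for RPS29, while the median over all genes tested was -0.01. Control 2 was the highest of the 6 cultures in 73 of 82 members, against 27.0% of all genes tested. Among the 5 paralogs the median excess was 0.02, with a range of -0.52 to 0.62. The coefficient of variation of a member had a median of 24.6% over the 3 controls, 8.0% over controls 1 and 3 alone, and 8.27% over the knockdown cultures.

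**Figure D1:**
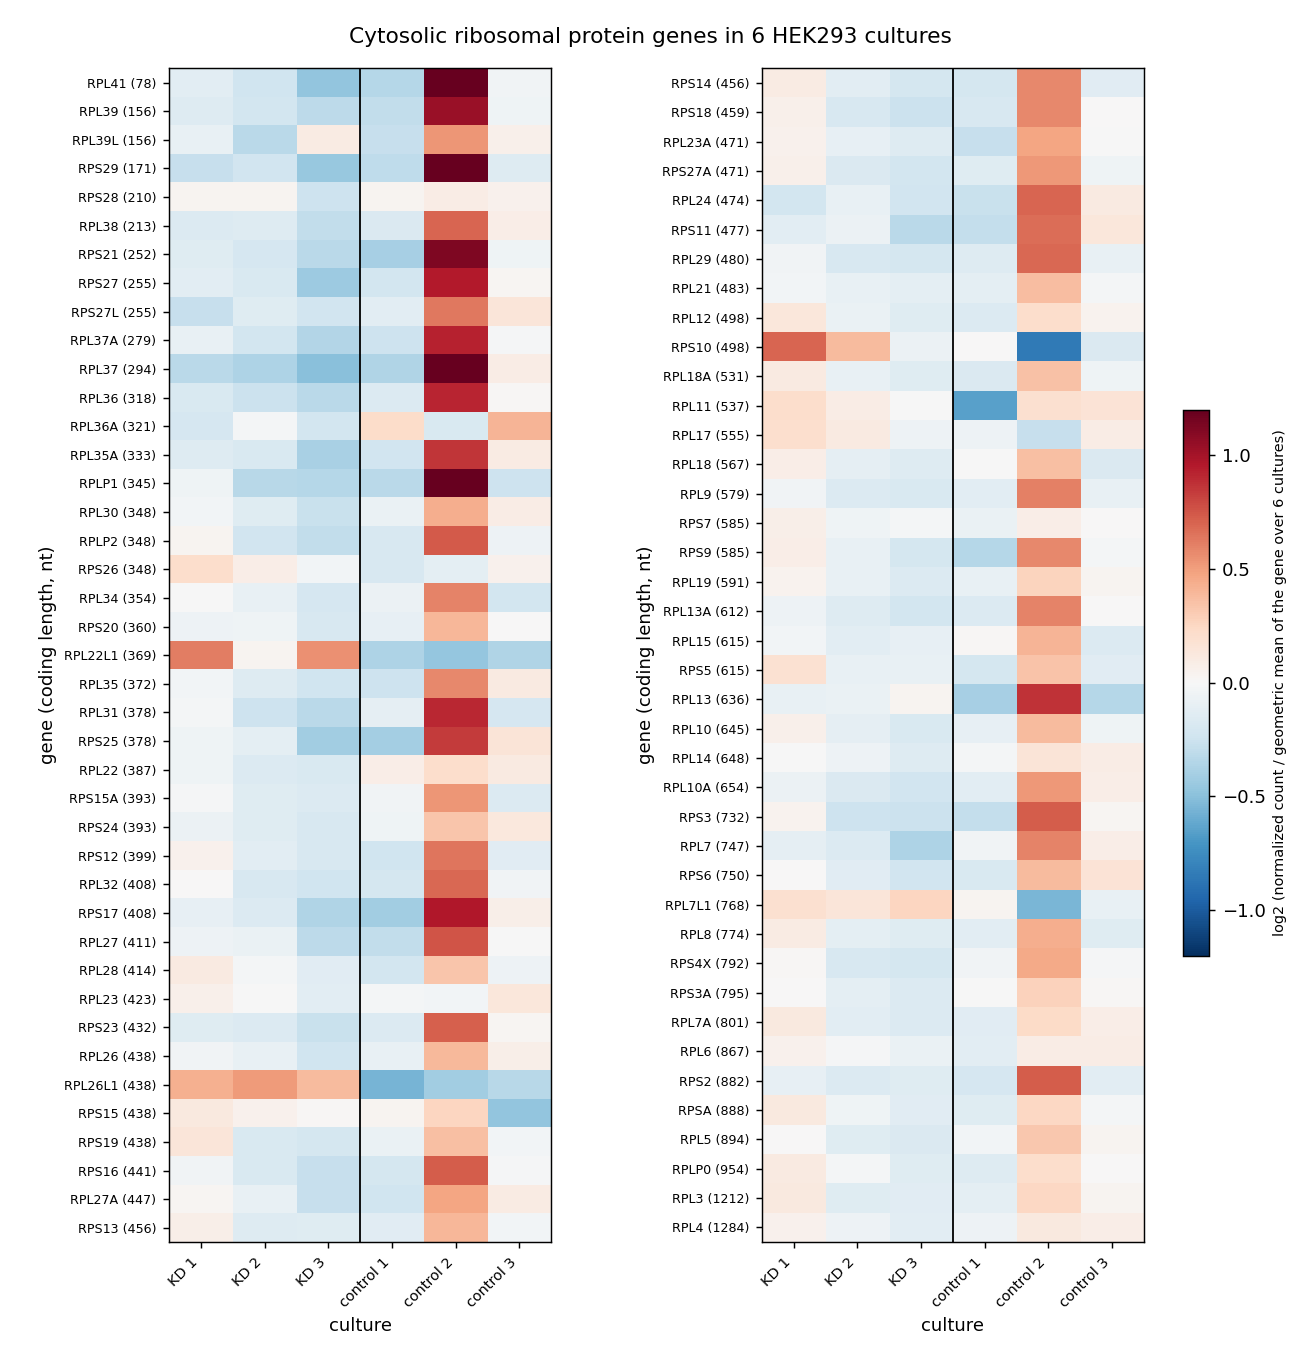
Log2 of each normalized count over the geometric mean of the gene, for the members (1 is not shown) in order of coding length (given in nucleotides after each symbol, shortest at the top left) in the 3 knockdown (KD) and 3 control cultures. The column of control 2 is red in most rows, most deeply among the shortest genes. The paralogs RPL26L1 and RPL22L1 are blue in all control columns and red in the knockdown columns, but for RPL22L1 near white in knockdown 2. RPL7L1 is light red in the knockdown columns and bluest in control 2. The colour scale ends at 1.2 in both directions.

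The excess in control 2 was larger for short genes. It had a median of 0.67 in the 51 members whose coding sequence was under 500 nt and 0.45 in the other 31. Across the 82 members, the excess and log2 coding length had a Pearson's r of -0.42 and a Spearman's rho of -0.42, as a description of points that share the same libraries. The same held outside the set in smaller measure: 975 other genes under 500 nt had a median excess of 0.23 and 12396 longer genes one of -0.02, with r = -0.30 over all 13453 genes tested that have a coding length. Content of G and C moved with the excess over all genes (r = 0.51) and little over the members (r = 0.09). Shorter members tended to have lower knockdown differences (r = 0.39, rho = 0.50 with coding length), and control 2 is part of that difference. Without control 2 this relation was weaker (r = 0.14, rho = 0.26). The part of library preparation or RNA quality in control 2 was not tested.

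**Figure D2:**
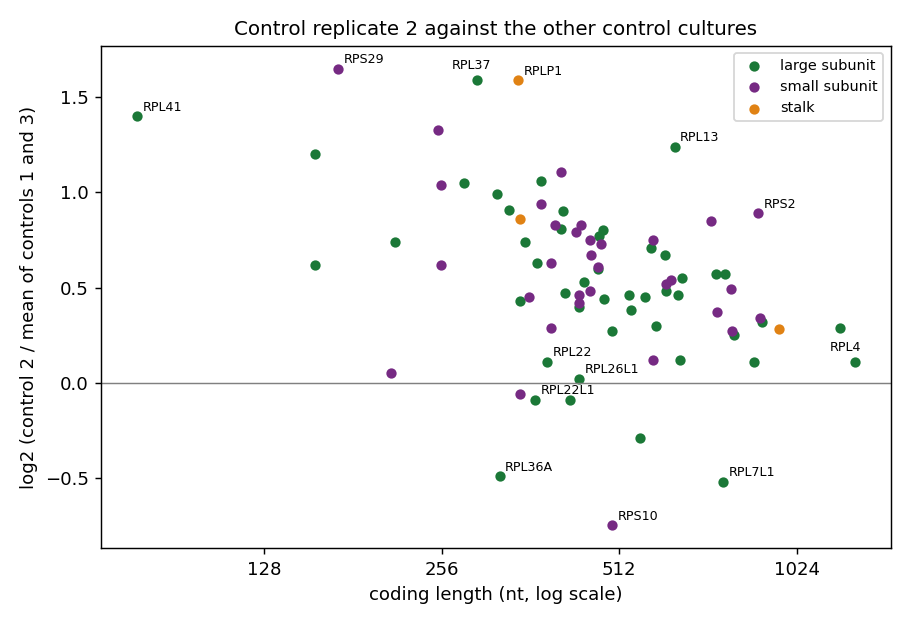
Excess of control 2, as log2 of its normalized count over the mean of controls 1 and 3, against coding length in nucleotides on a log scale, 1 point per member, coloured by large subunit, small subunit or stalk. The points tend to fall with length but scatter widely. RPL41 at 78 nt has 1.40 and RPL4 at 1284 nt has 0.11, while RPS28 at 210 nt has 0.05 and RPL13 at 636 nt has 1.24. RPS10, RPL7L1 and RPL36A are the lowest.

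The share of all counts that fell on the members did not separate the groups. They took 3.59%, 3.27% and 3.15% of counts in the knockdown cultures (3.34% ± 0.227, SD, n = 3) and 3.21%, 4.85% and 3.48% in the controls (3.85% ± 0.876, SD, n = 3). The share was highest in control 2, and the knockdown values lay within the range of the controls but for knockdown 3, the lowest of the 6. The difference of -0.511 percentage points had an exact two-sided permutation p of 0.6, where 3 cultures against 3 cannot go below 0.1, and it was -0.0115 against controls 1 and 3 alone. A share of counts in bulk RNA gives neither the amount of RNA per cell nor differences between cells of this line.

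The ratio of the subunits did not separate the groups either. Large subunit counts were 1.61, 1.63 and 1.62 times the small subunit counts in the knockdown cultures and 1.58, 1.5 and 1.63 times in the controls, a difference in means of 0.0485 with an exact two-sided permutation p of 0.4, and of 0.0135 against controls 1 and 3 alone. Control 2 had the lowest ratio of the 6. The large subunit took 1.92% ± 0.125 of counts in knockdown and 2.19% ± 0.459 in control cultures, the small subunit 1.27% ± 0.0895 and 1.5% ± 0.380, and the stalk 0.142% ± 0.0127 and 0.158% ± 0.0382 (SD, n = 3), with exact permutation p of 0.6, 0.5 and 0.7. Against controls 1 and 3 alone the differences were -0.00676, -0.0106 and 0.00576 percentage points.

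With all 6 cultures most members leaned lower in the knockdown, but none was called lower. A gene was called where the adjusted p of edgeR's quasi-likelihood test (Benjamini-Hochberg over all 14877 genes) was under 0.05, and fold changes are knockdown over control on the log2 scale. Of the 82 members, 0 were called lower (4.64% of all genes were) and 2 higher, RPL26L1 and RPL22L1 (5.4% of all genes). At an unadjusted p under 0.05 the counts were 8 lower and 4 higher, against 13.8% and 13.1% of all genes. The Wald test of DESeq2 called 1 lower, RPL7, and 1 higher (5.73% and 6.16% of all genes), and limma-voom called 0 lower and 1 higher (4.4% and 5.51%). With counts corrected for GC content and transcript length edgeR called 5 lower, with RPL10A, RPL22, RPL35 and RPL36 among them, and 3 higher (10.3% and 9.38% of the genes in that fit). The fold change was negative in 73 members, against 52.7% of all genes, with a median of -0.25 (quartiles -0.38 and -0.12) where all genes had -0.02. It ranged from -1.02 for RPL37 to 0.87 for RPL26L1. The medians of the large subunit (-0.24, 42 of 47 negative) and the small subunit (-0.25, 28 of 32 negative) were alike, and members under 500 nt of coding sequence had -0.31 against -0.15 for longer ones.

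Without control 2 this lean was close to 0. The fold change was then negative in 53 members and positive in 29, against 50.1% negative among all genes, with a median of -0.03. Called lower were 2 members, RPL22 and RPL36A (8.21% of all genes), and called higher 3, RPL26L1, RPL22L1 and RPL13 (8.45% of all genes). Down-weighting control 2 in place of removing it, with limma's quality weights, gave a median of -0.13, 2 members called lower (RPL7 and RPL22, against 9.45% of all genes) and 2 higher (RPL26L1 and RPL7L1, against 9.41%). Only RPL26L1 was called in the fit of all cultures and in all 18 alternatives.

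**Figure D3:**
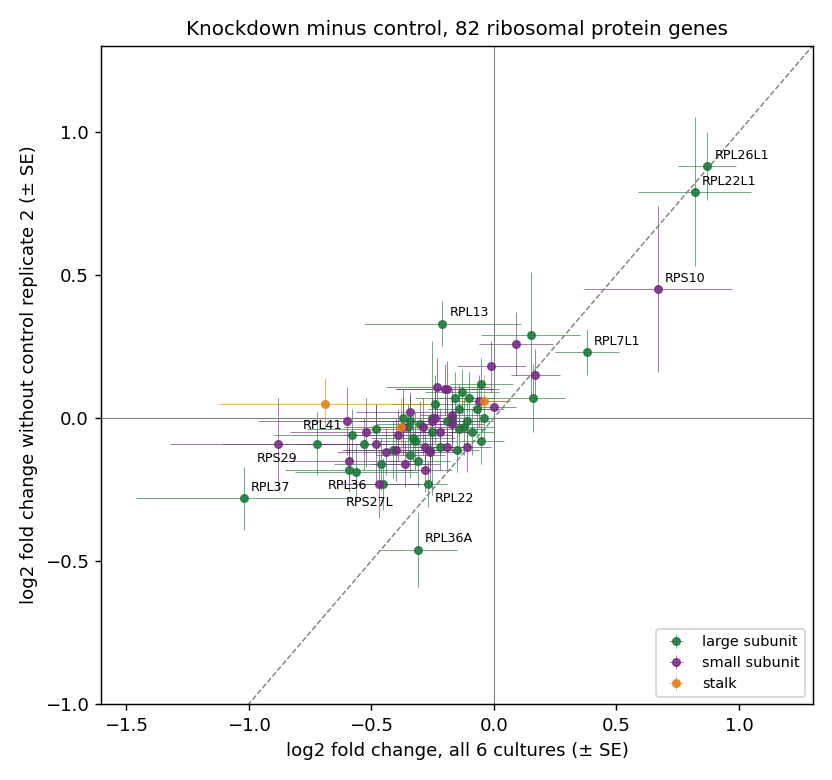
Log2 fold change of each of the 82 members, knockdown over control, with all 6 cultures (horizontal axis) and without control 2 (vertical axis), with bars of ± SE from edgeR and colours for large subunit, small subunit and stalk. The dashed line marks equal values. Most points lie left of 0 and above the line, and RPL26L1 (0.87 and 0.88) and RPL22L1 (0.82 and 0.79) lie close to it.

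The knockdown and control cultures did not overlap in 9 members. Knockdown was lower throughout in 6 (15.8% of all genes), with RPL36, RPS27L, RPL7, RPS24 and RPL22 among them, and higher throughout in 3, RPL7L1, RPL22L1 and RPL26L1 (16.4% of all genes). As shares of the 82 members, neither count exceeded that background.

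The clearest difference was in RPL26L1, a near copy of RPL26 (gene ENSG00000037241 at chr5:172958729-172969771, plus strand, in GENCODE release 44). It stood at 489.7, 520.5 and 473 normalized counts in the knockdown cultures and at 248, 273 and 289 in the controls. Every knockdown culture was above every control, and control 2 lay between the other controls. The means were 494.5 ± 23.9 and 270.1 ± 20.7 (SD, n = 3), a log2 fold change of 0.87 (SE 0.12, adjusted p = 0.0013 by edgeR's quasi-likelihood test), and without control 2 the change was 0.88 (adjusted p = 0.00019). Over the 18 alternatives it ran from 0.82 to 0.93. The parent gene RPL26 (chr17:8377516-8383213, minus strand) held 11062, 10676 and 9645 in the knockdown and 10659, 14915 and 11912 in the controls, with control 2 the highest, a change of -0.26 that did not pass (adjusted p = 0.21 by edgeR) and was -0.11 without control 2. RPL26L1 made up 4.24%, 4.65% and 4.68% of the pair's counts in the knockdown cultures and 2.27%, 1.80% and 2.37% in the controls. This share needs no scaling of libraries, and its exact two-sided permutation p of 0.1 is the smallest that 3 against 3 allows (0.17 adjusted over 5 pairs). The coding sequences were 84.2% identical with a longest shared run of 20 nt.

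RPL22L1, which can take the place of RPL22 in the large subunit, was the other member called higher (chr3:170864875-170870208, minus strand). It held 81, 54.2 and 77.3 normalized counts in the knockdown cultures and 40.8, 38.4 and 41.1 in the controls. Knockdown 2 was the lowest of its group and still above all controls. The change was 0.82 (SE 0.23, adjusted p = 0.0461 by edgeR), with means of 70.8 ± 14.5 and 40.1 ± 1.51 (SD, n = 3), and 0.79 without control 2 (adjusted p = 0.0497). The call was near the threshold, and 8 of the 18 alternatives made it. It was lost without knockdown 1, knockdown 2, knockdown 3, control 1 or control 3 (adjusted p of 0.058 to 0.17 in edgeR). With all cultures kept, it was also lost by the DESeq2 Wald test, limma-voom, quality weights and the replicate number as a block. DESeq2 without control 2 lost it as well. Over the 18 alternatives the change stayed between 0.71 and 0.98.

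RPL22 itself was lower in the knockdown by a smaller amount (chr1:6185020-6209389, minus strand). The knockdown cultures held 3702, 3432 and 3374 and the controls 4068, 4431 and 4151, with no overlap and little excess in control 2 (0.11 on the log2 scale). Its change of -0.27 (SE 0.08) had an adjusted p of 0.07 in edgeR with all cultures and 0.0481 without control 2 (-0.23). RPL22L1 was 2.14%, 1.56% and 2.24% of the pair's counts in the knockdown and 0.993%, 0.859% and 0.982% in the controls (exact two-sided permutation p = 0.1, the smallest possible). The pair's coding sequences were 65.4% identical, with no shared run over 17 nt.

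RPL7L1, the homologue of a yeast ribosome assembly factor, was the third paralog with higher knockdown values (chr6:42879616-42889925, plus strand). It stood at 2802, 2715 and 2926 in the knockdown and 2508, 1679.7 and 2302 in the controls, and control 2 was the lowest of all 6. The change was 0.38 (SE 0.13, adjusted p = 0.088 by edgeR) and 0.23 without control 2 (adjusted p = 0.062), and 5 of 18 alternatives called it. RPL7, a large subunit protein, held 4096, 3944 and 3419 in the knockdown and 4305, 6683 and 4684 in the controls, a change of -0.45 (adjusted p = 0.081) that was -0.23 without control 2 (adjusted p = 0.077 by edgeR). RPL7L1 took 40.6%, 40.8% and 46.1% of the pair's counts in the knockdown and 36.8%, 20.1% and 32.9% in the controls. The exact two-sided permutation p was 0.1, the smallest possible, and 0.17 adjusted over 5 pairs. The difference in means of 12.6 percentage points was 7.63 against controls 1 and 3 alone.

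In the remaining pairs the paralog's share did not separate the groups. RPS27L, a close copy of RPS27, stood at 375, 411 and 388 in the knockdown and 415, 704 and 502 in the controls, a change of -0.47 (adjusted p = 0.11 by edgeR) and of -0.23 without control 2. RPS27, its parent, held 1840.1, 1772 and 1492 in the knockdown and 1728, 3889 and 2041 in the controls, with control 2 far above the rest. The share of RPS27L in that pair was 18.8% ± 1.84 in knockdown and 18.2% ± 2.45 in control cultures (SD, n = 3, exact two-sided permutation p = 0.7). RPL39L, known from the testis, was at 45.3, 38.6 and 51.5 in the knockdown and 39.8, 69.6 and 50.4 in the controls, and its share of the pair with RPL39, a protein of the exit tunnel, was 2.99% ± 0.534 and 2.54% ± 0.535 (SD, n = 3, exact permutation p = 0.5). RPL39 and RPL39L were 94.9% identical over their coding sequences with a shared run of 67 nt, so reads could be split between them. RPL39 held 1551, 1475 and 1386 in the knockdown and 1404, 3528 and 1665 in the controls, and its change of -0.58 with all cultures was -0.06 without control 2.

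Among the other large subunit genes, the largest negative fold changes were smaller without control 2. RPL37, a zinc-binding protein, held 2606, 2520.3 and 2296 normalized counts in the knockdown cultures and 2535, 9012 and 3460.0 in the controls. Control 2 alone stood apart, and the change of -1.02 (SE 0.44, adjusted p = 0.2 by edgeR) was -0.28 without it (adjusted p = 0.095). RPL41, a single short helix, showed the same pattern with 2199.7, 2035 and 1735 in the knockdown and 1895, 5579 and 2336 in the controls, a change of -0.72 that was -0.09 without control 2. RPL36 was at 2722, 2585 and 2464 in the knockdown and 2762, 5827 and 3115 in the controls. Its knockdown cultures lay below all controls, and its change was -0.59 (adjusted p = 0.19 by edgeR) and -0.18 without control 2. With the correction for GC content and length RPL36 was called lower with all cultures (-0.51, adjusted p = 0.004 by edgeR). It was also called with that correction without control 2 (-0.38, adjusted p = 0.0014 by edgeR).

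RPL5 and RPL11, which with 5S rRNA form the particle that binds MDM2, gave values that overlapped between the groups. RPL5 held 10260.0, 9223 and 9045 in the knockdown and 9975, 12739.7 and 10414 in the controls, a change of -0.22 (adjusted p = 0.23 by edgeR) that was -0.10 without control 2. RPL11 held 5489, 5056 and 4735 in the knockdown cultures and 3033, 5428 and 5308 in the controls. Control 1 was the lowest of the 6 here, and the change of 0.15 (adjusted p = 0.67 by edgeR) was -0.08 without control 1 and 0.29 without control 2. RPL3, at the catalytic centre, held 16144, 13499.9 and 13556 in the knockdown and 13766, 17693 and 15219.8 in the controls with a change of -0.11 (-0.01 without control 2), and RPL10, which joins last and allows the subunits to meet, held 9122, 8158 and 7718 in the knockdown and 8184, 11431 and 8467 in the controls with a change of -0.17 (0.00 without control 2). Neither was called in any of the 18 alternatives.

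RPL13 turned its direction with control 2. The knockdown cultures stood at 9469, 9525 and 10287 and the controls at 7611, 18319 and 7936, so that control 2 was above all others and the remaining controls below all knockdown cultures. The change was -0.21 with all cultures (SE 0.32, adjusted p = 0.73) and 0.33 without control 2 (adjusted p = 0.0086 by edgeR). RPL36A, at 215, 243 and 212 in the knockdown and 287, 218 and 327 in the controls, was among the few members where control 2 was not high, and its change was -0.31 (adjusted p = 0.25) and -0.46 without it (adjusted p = 0.029 by edgeR). RPL36A and RPL13 were described because of their values without control 2, as were RPL36, RPL17, RPS2, RPS15, RPS24 and RPL4 because of their values or place in a plot, and not by the fixed rule.

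In the small subunit the same culture set the extremes. RPS29 held 153, 159 and 135 normalized counts in the knockdown cultures and 151, 499.8 and 167 in the controls. Its change of -0.88 (SE 0.44, adjusted p = 0.25 by edgeR) was -0.09 without control 2, whose excess of 1.65 on the log2 scale was the largest among the members. RPS10, a protein that ZNF598 ubiquitinates on collided ribosomes, had the largest positive change of the small subunit at low and uncertain counts. It was at 67.5, 54.2 and 39.7 in the knockdown and 41.8, 23.2 and 37 in the controls, with the groups overlapping, a change of 0.67 (adjusted p = 0.17) and of 0.45 without control 2.

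Small subunit genes fixed for their roles did not separate the groups. RPS6, which S6 kinases phosphorylate, held 14720.0, 13407 and 12529 in the knockdown and 12957, 19059.5 and 16503 in the controls, a change of -0.26 (adjusted p = 0.24 by edgeR) that was -0.12 without control 2. RPS19, the gene most often mutated in Diamond-Blackfan anaemia, held 10323, 8257 and 8109 in the knockdown and 8862, 12027 and 9127 in the controls, with knockdown 1 above all cultures but control 2. RPS26, mutated in the same disease, held 3365, 3075 and 2846 in the knockdown and 2560.1, 2688 and 3030.0 in the controls, a positive change of 0.17 (adjusted p = 0.31 by edgeR) in which control 2 was not high. RPS4X, one of the most abundant members, had a change of -0.28 (-0.10 without control 2), from 25205, 21853 and 21541 in the knockdown and 24169, 34229.5 and 24674 in the controls. RPSA, also known as a laminin receptor, had a change of -0.06, and RPS27A, made as a fusion with ubiquitin, one of -0.24, which were 0.06 and 0.00 without control 2.

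RPS24 was among the small subunit genes whose groups did not overlap. It is another gene of Diamond-Blackfan anaemia, and it held 8148, 7728 and 7489.7 in the knockdown and 8258, 10774 and 9339 in the controls, with changes of -0.28 (adjusted p = 0.12 by edgeR) and -0.18 without control 2. RPS15 was at 14528, 13914 and 13570.0 in the knockdown and 13709, 16067 and 9699 in the controls. Control 3 was its low value, and its change of 0.09 became -0.08 without that culture.

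The stalk proteins differed in how far control 2 stood out. RPLP1 held 2468, 2039 and 2027 in the knockdown and 2047, 6319.9 and 2162 in the controls, a change of -0.69 (adjusted p = 0.36 by edgeR) that was 0.05 without control 2. RPLP2, its partner in the stalk dimer, held 2715, 2266 and 2166 in the knockdown and 2316, 4419.7 and 2542 in the controls, with changes of -0.38 and -0.03. RPLP0, the longer base of the stalk, held 18218, 16603 and 15337 in the knockdown and 15164, 19569 and 16977 in the controls, and its changes were -0.04 and 0.06.

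Further cytosolic ribosomal protein genes have names that the pattern leaves out, and none of those read was called. The changes were 0.06 for FAU, made as a fusion with a ubiquitin-like protein, -0.23 for RPL36AL, and -0.25 for RACK1, which is listed under its older symbol GNB2L1. Without control 2 they were 0.22, -0.12 and -0.11. Mitochondrial ribosomal protein genes, which serve another ribosome, gave a median change of -0.10 over 78 genes. Of these, 1 was called lower and 1 higher, where 4.64% and 5.4% of all genes were. Without control 2 the median was about 0, with 4 called lower and 5 higher, where 8.21% and 8.45% of all genes were. Their median excess in control 2 was 0.25.

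Other genes of ribosomal protein supply and control were read from lists, whose counts of calls stand beside the same 4.64% lower and 5.4% higher of all genes. The lists were chosen with earlier results of these data known, so these counts are a description and not a test of the lists. Of 24 translation factors and other proteins with TOP mRNAs, 1 was called lower, TPT1 (-0.35, adjusted p = 0.03 by edgeR) and 1 higher, EIF3F (0.80, adjusted p = 0.029). TPT1 stood at 10588, 9806 and 9393 in the knockdown and 12644, 12196 and 13049.9 in the controls, and EIF3F, a subunit of initiation factor eIF3, at 2274, 2147 and 2051 in the knockdown and 816, 1429 and 1459.9 in the controls. Among 11 noncoding hosts of snoRNAs, 1 was called lower, ZFAS1, with 153, 216 and 199.7 in the knockdown and 266, 362 and 283 in the controls (-0.68, adjusted p = 0.028 by edgeR). Without control 2 these changes were -0.37, 0.92 and -0.54, and of the 18 alternatives 13 called TPT1, 12 EIF3F and 14 ZFAS1. The medians of these lists were 0.03 and -0.20, against -0.25 for the members.

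Of 21 regulators of TOP mRNA translation and ribosomal protein gene transcription, 2 were called lower and 0 higher. TIA1, an RNA-binding protein of stress granules, stood at 1426, 1561 and 1606 in the knockdown and 2342, 1929 and 1982 in the controls (-0.45, adjusted p = 0.018 by edgeR). TBPL1, a relative of the TATA-binding protein, stood at 390.4, 347 and 359.6 in the knockdown and 518, 568 and 443 in the controls (-0.48, adjusted p = 0.035). Without control 2 their changes were -0.50 and -0.39. TIA1 was called in 14 of the 18 alternatives and TBPL1 in 11, with a change of -0.18 when control 2 was left out and GC content and length were corrected. MTOR, RPTOR and MYC were not called with all cultures, nor was LARP1 (0.26, adjusted p = 0.066 by edgeR). Without control 2 the list held 4 lower and 1 higher. The higher one was LARP1 (0.26, adjusted p = 0.024 by edgeR), and the S6 kinase gene RPS6KB1 (-0.32) and the LARP1 paralog LARP1B (-0.37) joined TIA1 and TBPL1 among the lower. These 3 genes were named after their values were seen.

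Among 14 chaperones and importers of ribosomal proteins, 2 import receptors were called lower and 0 genes higher. TNPO1 held 3974, 4732 and 4573 in the knockdown and 7470.2, 6173 and 7763 in the controls, and no knockdown culture reached a control (-0.69, SE 0.11, adjusted p = 0.003 by edgeR). IPO7 held 4452, 4712 and 4629 in the knockdown and 6838, 5500.5 and 6678 in the controls (-0.46, adjusted p = 0.014). Both carry many cargoes besides ribosomal proteins. Without control 2 they were called again, at -0.78 and -0.56. TNPO1 was called in all 18 alternatives and IPO7 in 14, with an adjusted p of at most 0.078 in edgeR where the call was lost.

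The 11 genes of the 5S particle and the pathway that MDM2 controls held 3 called lower and 0 higher. ZMAT3, an RNA-binding protein, was at 384, 418 and 482 in the knockdown and 1656, 1393 and 1437 in the controls (-1.81, SE 0.12, adjusted p = 2.9e-05 by edgeR). CDKN1A, the cell cycle inhibitor p21, was at 2157, 1548 and 1725 in the knockdown and 3724, 4362 and 3057 in the controls (-1.04, adjusted p = 0.0015). MDM2, the ligase that RPL5 and RPL11 bind, was at 4930.5, 5768 and 5428 in the knockdown and 8119, 6036 and 8700.0 in the controls (-0.50, adjusted p = 0.032). ZMAT3 and CDKN1A were called in all 18 alternatives, and MDM2 in 13, and without control 2 their changes were -1.86, -0.90 and -0.65. Of 11 genes of ribosome quality control, 0 were called lower and 1 higher, UBE2O, which ubiquitinates unassembled ribosomal proteins, with 2126, 1922 and 2058 in the knockdown and 1589.7, 1690.4 and 1446 in the controls (0.37, adjusted p = 0.028 by edgeR). Its change was 0.42 without control 2, and 12 of the 18 alternatives called it. Leaving out any of the knockdown cultures in edgeR lost the calls of TPT1, EIF3F, ZFAS1, TIA1, TBPL1, IPO7, MDM2 and UBE2O, leaving out control 1 lost all of these but EIF3F, and leaving out control 3 lost MDM2 and UBE2O. Without control 2, all 11 called genes of these lists were called again in the same direction. The lists then held 15 genes called lower and 7 higher in all, where 8.21% and 8.45% of all genes were called. As the lists were chosen with earlier results known, the shares of all genes give no test of them.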

How the data were processed

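Per the labels and the study's methods, polyadenylated RNA of 6 HEK293 cultures was sequenced on an Illumina NovaSeq from stranded libraries. The authors deposited 1 table of raw gene counts, whole numbers that are not normalized. The submitters' processing notes name FastQC 0.11.9, Trim Galore 0.6.6, STAR 2.7.9a, featureCounts 2.0.1 and hg38, and the study's methods add SortMeRNA. The gene annotation, the strand setting and the treatment of reads with several matches are not given in the sources used here.

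Genes were filtered with filterByExpr, scaled by TMM and fitted on the whole table with edgeR 4.0.16 (glmQLFit, robust, and glmQLFTest, R 4.3.3), knockdown (n = 3) against control (n = 3) without covariates. P-values were adjusted by Benjamini-Hochberg over all 14877 genes tested, and the common biological coefficient of variation was 12.4%. Shares and ratios were compared by exact two-sided permutation over the cultures. Each library holds 13900965 to 16869948 counts, and counting error is largest for members under 100 counts.

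Members and lists were chosen with earlier results of these data known. Named genes were the called members, the 3 largest changes in each direction, members fixed by role, the paralog pairs, the genes outside the name pattern and up to 5 called genes of each list. Names matched GENCODE release 44 by symbol (23161), by synonym (1369) or not at all (1955), and start sites came from RefSeq (GRCh38.p14). Alternatives were other scalings and filters, DESeq2 1.42.0, limma-voom 3.58.1, the replicate block, a correction for GC content and length, and leaving out each culture. Quality weights and the fits without control 2 by DESeq2 or with the correction were added after seeing the data. Nothing in the labels says that the replicate numbers mark pairs, so the main fit has no pairing. Same-numbered cultures did not deviate together (r = -0.199, -0.112 and -0.044), but so few cultures cannot settle whether they were paired. Some genes are not reported here.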

Additional observations from a re-analysis of the deposited data

How the results depend on the processing

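RPL26L1 was called higher in all 18 alternatives of the fit. The median fold change of the members was below 0 in all of them, from -0.36 without control 1 to -0.03 without control 2. Most of these fits keep control 2, whose excess enters the fold change, so their shared sign is not independent support. Without control 2 the median of all genes tested was about 0. The number of members called lower, 0 with all cultures, was 1 by the DESeq2 Wald test, 5 with the GC and length correction, 2 with limma's quality weights, 2 without control 2 by DESeq2 and 4 without control 2 with the correction. It was 0 to 2 in edgeR with a culture left out, with the 2 at control 2 and a 1 at control 1 (RPL37, -1.33, adjusted p = 0.044 by edgeR). The number called higher, 2 with all cultures, was 1 by DESeq2, 1 by limma-voom, 4 without control 2 with the correction, and 1 to 3 with a culture left out, the 3 again at control 2. In the lists of other translation genes, 9 were called lower and 2 higher with all cultures. Leaving out a culture gave 3 to 15 lower and 0 to 7 higher. The 3 came on leaving out knockdown 1, 2 or 3 or control 1, the 0 on leaving out knockdown 1, 2 or 3, and the 15 and 7 without control 2, while leaving out control 3 gave 9 lower and 6 higher. DESeq2 called 4 higher, the correction 5, the quality weights 8, and DESeq2 without control 2 called 15 lower and 7 higher. The cause of these differences was not tested. The share of all genes called is not given for fits that left out a culture other than control 2. It is also not given for the fits without control 2 by DESeq2 or with the correction. The counts of those fits are therefore not read against a background.

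With the replicate number as a block, 1 member was called lower (RPL7) and 2 higher (RPL26L1 and RPL7L1). The share of all genes called in the block fit is not given, so these counts are not read against a background. Nothing in the labels says that the numbers pair these cultures, so the block stands here only as an alternative.

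Directions turned mainly with control 2. RPL13 changed by 0.33 without it by edgeR and by DESeq2, by 0.26 with the correction and by 0.18 with quality weights. The same fits gave 0.00 by both tools for RPL10, 0.06, 0.06 and, with weights, 0.00 for RPLP0, 0.05, 0.05 and, with the correction, 0.02 for RPLP1, 0.02 by both tools for RPS2, 0.06, 0.06 and 0.01 for RPSA, 0.04 with the correction for RPS27A and 0.00 in edgeR for RPL39L. With a culture left out, the change ran from -0.43 to 0.33 for RPL13, -0.26 to 0.00 for RPL10, -0.42 to 0.00 for RPL39L, -0.13 to 0.06 for RPLP0, -0.96 to 0.05 for RPLP1, -0.50 to 0.02 for RPS2, -0.14 to 0.06 for RPSA, -0.08 to 0.29 for RPL11, -0.08 to 0.26 for RPS15 and -0.05 to 0.22 for FAU. None of these genes was called with all cultures. Depth limits RPS10, RPL39L and RPL22L1, at under 100 counts in each culture, more than the other members.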
